A study of Mus musculus with 9 samples.

Results

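Oxidative phosphorylation is the last stage of aerobic energy production, carried out by 5 protein complexes of the inner mitochondrial membrane. Complexes I to IV pass electrons on towards oxygen, complexes I, III and IV pump protons, and complex V, the ATP synthase, uses the proton gradient to make ATP. The complexes are built from subunits of 2 genomes, since the mitochondrial DNA encodes a small core of complexes I, III, IV and V while nuclear genes encode the other subunits and all of complex II. Skeletal and heart muscle hold much of a body's mitochondria, and for some complex IV subunits striated muscle uses an isoform of its own.

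The genes were chosen by name, as subunits of complex I (Nduf), complex II (Sdh), complex III (Uqcr), complex IV (Cox) and complex V (Atp5) and as protein-coding genes of the mitochondrial DNA (mt-), and 108 of the 25652 genes counted were taken in. The mitochondrial DNA encodes 13 of them and nuclear DNA 95. Of the mitochondrial genes, 7 belong to complex I, 1 to complex III, 3 to complex IV and 2 to complex V. Of the nuclear genes, 38 belong to complex I, 8 are complex I assembly factors (Ndufaf), 4 belong to complex II, 8 to complex III, 19 to complex IV and 18 to complex V. Ndufa4 and Ndufa4l2 were counted with complex IV despite their Nduf names. No read was counted in any library for 5 nuclear members (Cox7b2, Cox8c, Cox5b-ps, Ndufb11b and Atp5o_1), so 103 were tested. The naming rule leaves out Cox4i1, Cox4i2, Cyc1 and Cycs, which are treated with the other mitochondrial genes.

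The samples were wild-type mice in which 200 µL of talc in saline (2.0 g/kg) was injected into the left chest cavity, a procedure that glues the lung to the chest wall. The tissue taken was the adhesion between chest wall and lung, described in the protocol as left lung tissue joined to the chest, at 30 minutes (called day 0), 3 days and 9 days, with 3 libraries per time. All 3 groups received talc, so day 0 is the earliest time and not an untreated control, and the ages and sexes of the mice were not used here. Libraries were made from polyadenylated RNA with a kit that does not keep the strand, and held 12769059 to 18701063 counts. The labels do not say that each library is a separate mouse, so p-values measure the spread between these libraries. Libraries of the same day differed by more than counting noise.

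The tissue was a mixture, and its make-up differed between libraries of one day. Myh4, the myosin heavy chain of fast skeletal muscle fibres, took 3.65%, 2.93% and 2.50% of the counts in the day 0 libraries, 2.68%, 1.60% and 0.605% in those of day 3 (replicates 1, 3 and 4), and 2.09%, 2.25% and 1.61% in those of day 9 (replicates 1, 3 and 4). A list of 8 slow-fibre genes summed to 6196 CPM (counts scaled to a fixed library total) in day 3 replicate 4 and to between 1352 and 2230 CPM in the other 8 libraries. A list of 11 genes of alveolar type 2 cells, the surfactant-making cells of the lung, summed to 5150 to 5651 CPM at day 0 and to 6158 CPM in day 3 replicate 3, but to 201 and 146 CPM in day 3 replicates 1 and 4 and to between 722 and 2926 CPM at day 9. All 11 of these genes, all 8 slow-fibre genes and all 14 genes of a fast-fibre list had reads in each library. In bulk tissue, fewer cells of a type and less RNA per cell cannot be told apart.

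The 13 mitochondrially encoded genes took 8.66%, 9.68% and 9.87% of the counts in the day 0 libraries, 7.32%, 5.88% and 10.7% in those of day 3, and 7.42%, 6.32% and 5.88% in those of day 9. The means were 9.40% ± 0.647 at day 0, 7.96% ± 2.46 at day 3 and 6.54% ± 0.793 at day 9 (SD, n = 3 each). Each day 9 library lay below each day 0 library, while day 3 spanned nearly the whole range of the other days. The 95 nuclear genes took 1.60% ± 0.102 at day 0, 1.49% ± 0.397 at day 3 and 1.35% ± 0.0757 at day 9. Their day 9 libraries, at 1.43%, 1.35% and 1.28%, also lay below the day 0 libraries, at 1.49%, 1.64% and 1.68%.

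The balance between the genomes also differed between the days. The ratio of mitochondrially encoded to nuclear counts was 5.83, 5.89 and 5.88 in the day 0 libraries, 5.09, 5.26 and 5.59 in those of day 3, and 5.19, 4.70 and 4.59 in those of day 9. It averaged 5.87 ± 0.0358 at day 0, 5.31 ± 0.255 at day 3 and 4.83 ± 0.316 at day 9. The day 0 libraries were within a narrow band, and no library of either later day reached it, including day 3 replicate 4, which held the highest share of both kinds of gene. The shares and their ratio are descriptions, with no test.

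**Figure D1:**
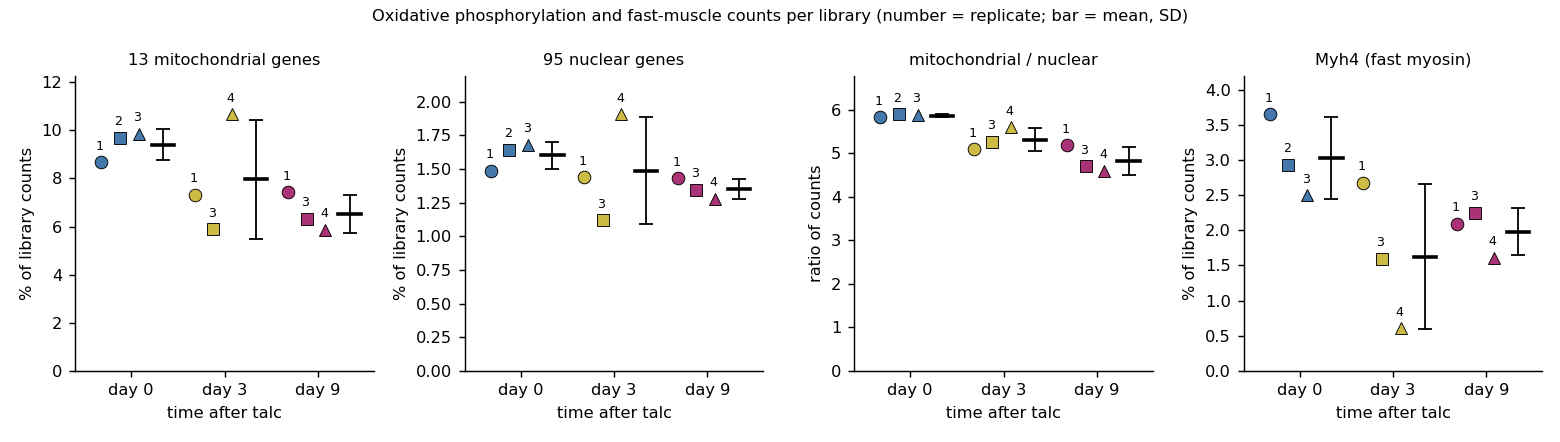
Share of each library's counts in the 13 mitochondrial genes, the 95 nuclear genes and Myh4 (y axes in % of counts), and the ratio of mitochondrial to nuclear counts, by day; points are libraries with their replicate number and the bar is the mean with its SD. Day 3 replicate 4 has the highest mitochondrial share (10.7%) and the lowest Myh4 share (0.605%).

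No member passed the test in any comparison. In edgeR's quasi-likelihood test across 14794 genes, fitted on all 9 libraries with Benjamini-Hochberg adjustment over all genes, 0 of 103 members passed an adjusted p of 0.05 at day 9 against day 0, where 20.7% of all tested genes passed in either direction, 5.54% lower and 15.2% higher. At an unadjusted p under 0.05 there were 12 of the 103 members, of which 5 were mitochondrially encoded, beside 5193 of the 14794 genes. DESeq2 called 8 members (beside 10.7% of all genes lower) and limma-voom 1 (beside 6.03%), each of them lower. In edgeR with library totals only 4 passed as lower (beside 3.62%), and with DESeq2 size factors 1 (beside 6.41%). At day 3 against day 0, 0 of 103 passed in edgeR beside 16.2% of all genes (3.29% lower, 12.9% higher). In that edgeR comparison 3 members had an unadjusted p under 0.05, beside 4893 of the 14794 genes. DESeq2 called 0 members there, beside 1227 genes lower and 2139 higher of 14328. limma-voom also called 0, beside 645 lower and 1792 higher of 14794. At day 9 against day 3, 0 of 103 passed in edgeR beside 8.85% of all genes (3.66% lower, 5.19% higher). An unadjusted p under 0.05 was found for 6 members, beside 3962 of the 14794 genes. DESeq2 called 2 as lower (beside 7.21% of all genes lower) and limma-voom 0 (beside 512 genes lower and 808 higher of 14794).

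The fold changes of the members nevertheless leaned one way at day 9. Against day 0, 98 of 103 log2 fold changes were negative, all 13 of the mitochondrially encoded genes and 85 of 90 nuclear genes. The median was -0.65 over the mitochondrially encoded genes and -0.32 over the nuclear genes, beside 0.01 over all genes tested. The normalised CPM of 84 members were lower in each day 9 library than in each day 0 library, the other 19 overlapped, and none lay wholly higher. Over all genes tested, 28.2% lay wholly lower and 29.3% wholly higher. At day 3 against day 0 the medians were -0.21 and -0.08, and 6 members lay wholly below day 0, beside 12.9% of all genes. At day 9 against day 3 the medians were -0.41 and -0.22, and 3 members lay wholly below day 3, beside 14.1% of all genes.

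**Figure D2:**
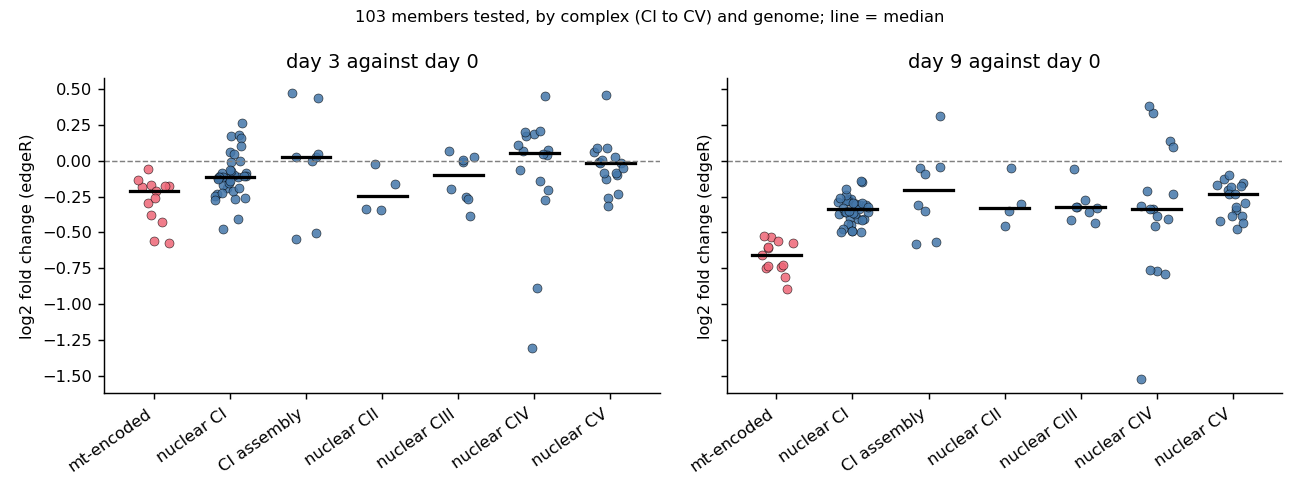
Log2 fold changes (y axis, edgeR) of the 103 tested members at day 3 and at day 9 against day 0, by genome and complex; each point is a gene and the line is the median. At day 9 all 13 mitochondrially encoded genes lie between -0.89 and -0.53, below the medians of every nuclear group.

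The call at day 9 depended on which libraries set the spread. Fitted on the 6 libraries of day 0 and day 9 alone, 64 of 103 members passed as lower and 0 as higher, beside 20.6% lower and 22.7% higher of the 14617 genes then tested. These were 12 of the mitochondrially encoded genes and 52 nuclear genes, 28 of complex I, 3 assembly factors, 3 of complex II, 5 of complex III, 6 of complex IV and 7 of complex V. With all libraries except day 3 replicate 3, which had the lowest level of most members, 25 members passed as lower beside 14.8% of all genes, and with all except day 3 replicate 4, which had the highest, 8 passed beside 8.61%. At day 9 against day 3, 20 members passed as lower without day 3 replicate 3, beside 11% of all genes. Relative to the other libraries of its day, day 3 replicate 3 had a median ratio of 0.535 over the mitochondrially encoded and 0.546 over the nuclear members, against 1.73 and 1.67 for day 3 replicate 4. Whether these libraries differed in the mice or in how much muscle and lung was taken was not tested.

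Among the mitochondrially encoded genes, mt-Co1, the catalytic subunit of complex IV, had the highest level per length. It averaged 17600 ± 1764 RPKM (reads per kilobase of exon, scaled to the library total; SD, n = 3) at day 0, 15371 ± 5178 at day 3 and 12903 ± 1699 at day 9. On the same per-length scale mt-Co2 averaged 13066 ± 1210 RPKM at day 0, and mt-Atp8 stood lowest of the 13, at 918 ± 67.2 RPKM. mt-Atp8 has 204 bases, 43 of them shared with mt-Atp6, which averaged 12043 ± 702 RPKM at day 0. What part the short length and the shared bases had in the mt-Atp8 value was not tested. On this scale the highest nuclear member at day 0 was Cox6a2, at 539 ± 22.7 RPKM, followed by the ATP synthase subunits Atp5a1 (465 ± 42.9 RPKM) and Atp5b (413 ± 35.9 RPKM). At day 9 Atp5a1, at 403 ± 15.1 RPKM, stood above Cox6a2, at 340 ± 32.9 RPKM. The order of these 3 depends on the length used, which joins all annotated exons of a gene. That length was 680 bases for Cox6a2, 3135 for Atp5a1 and 4237 for Atp5b. Not scaled by length, their counts over all 9 libraries were 49371, 187251 and 236981.

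Not normalised for length, mt-Co1 had 25496, 29004 and 29365 CPM at day 0, 22929, 14895 and 36024 CPM at day 3, and 23079, 17989 and 16837 CPM at day 9. The day 9 libraries were all below those of day 0, and the day 3 libraries held both the lowest and the highest value. The log2 fold change at day 9 against day 0 was -0.53 ± 0.36 (SE, edgeR, adjusted p = 0.312). Fitted on the 6 libraries of those days alone the adjusted p in edgeR was 0.0351, and over all alternatives run it lay between 0.0179 and 0.588.

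Of the mitochondrially encoded genes, mt-Nd2 and mt-Nd5 of complex I had the most negative log2 fold changes at day 9 against day 0. mt-Nd2, a proton-pumping subunit, had 6365, 7010 and 6520 CPM at day 0, 4710, 2871 and 5774 CPM at day 3, and 4243, 3456 and 3008 CPM at day 9. Neither later day overlapped day 0. Its log2 fold change at day 9 against day 0 was -0.89 ± 0.28 (SE), with an adjusted p of 0.0524 in edgeR, and at day 3 against day 0 it was -0.58 ± 0.28 (adjusted p = 0.185, edgeR). Across the alternatives run, the adjusted p at day 9 ranged from 0.000931 to 0.207.

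mt-Nd5, another proton-pumping subunit, had 5280, 5748 and 5362 CPM at day 0, 4112, 2743 and 5350 CPM at day 3, and 3656, 2944 and 2749 CPM at day 9. mt-Nd1, which helps to form the ubiquinone site, had 7919, 8555 and 8218 CPM at day 0, 5635, 3434 and 7678 CPM at day 3, and 5613, 4920 and 4253 CPM at day 9. Both were below day 0 in all 3 day 9 libraries, and mt-Nd1 also in all 3 day 3 libraries. The day 9 log2 fold changes against day 0 were -0.81 ± 0.26 for mt-Nd5 (adjusted p = 0.0602, edgeR) and -0.74 ± 0.30 for mt-Nd1 (adjusted p = 0.112, edgeR). mt-Cytb, the only mitochondrially encoded subunit of complex III, had 8743, 9625 and 8958 CPM at day 0, 7976, 5304 and 12925 CPM at day 3, and 7518, 6135 and 5327 CPM at day 9, with a log2 fold change of -0.53 ± 0.33 at day 9 against day 0 (adjusted p = 0.282, edgeR).

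The make-up of the mitochondrially encoded counts differed between the days, a pattern picked out after its values were seen and given without a test. mt-Nd2 made up 6.97%, 6.95% and 6.65% of them in the day 0 libraries, 6.04%, 5.60% and 4.90% in those of day 3, and 5.69%, 5.70% and 5.51% in those of day 9. mt-Cytb made up 9.58%, 9.54% and 9.13% in the day 0 libraries, 10.23%, 10.35% and 10.97% in those of day 3, and 10.08%, 10.12% and 9.75% in those of day 9. The shares of mt-Nd1, mt-Nd2 and mt-Nd5 were thus lower, and those of mt-Cytb and mt-Atp6 higher, in each library of both later days than in each day 0 library. Their sizes differed between the later days, since mt-Nd1 averaged 6.81% ± 0.369 at day 3 and 7.81% ± 0.297 at day 9, against 8.51% ± 0.151 at day 0, with no overlap among the 3 days.

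The ratio of mt-Nd2 to mt-Cytb counts varied little within 2 of the days. It was 0.728, 0.728 and 0.728 in the day 0 libraries, 0.590, 0.541 and 0.447 in those of day 3, and 0.564, 0.563 and 0.565 in those of day 9. Its SD was 0.000258 at day 0 and 0.000727 at day 9, against 0.0730 at day 3. The SD of day 0 and of day 9 lie below the spread that counting reads alone would give. They are therefore no measure of how constant the ratio is between libraries. The ratio of mt-Nd1 to mt-Cytb was 0.904 ± 0.0143 at day 0, 0.649 ± 0.0562 at day 3 and 0.782 ± 0.0310 at day 9. Ratios within a library do not depend on its total or its scaling, and show unequal change rather than which gene changed.

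**Figure D3:**
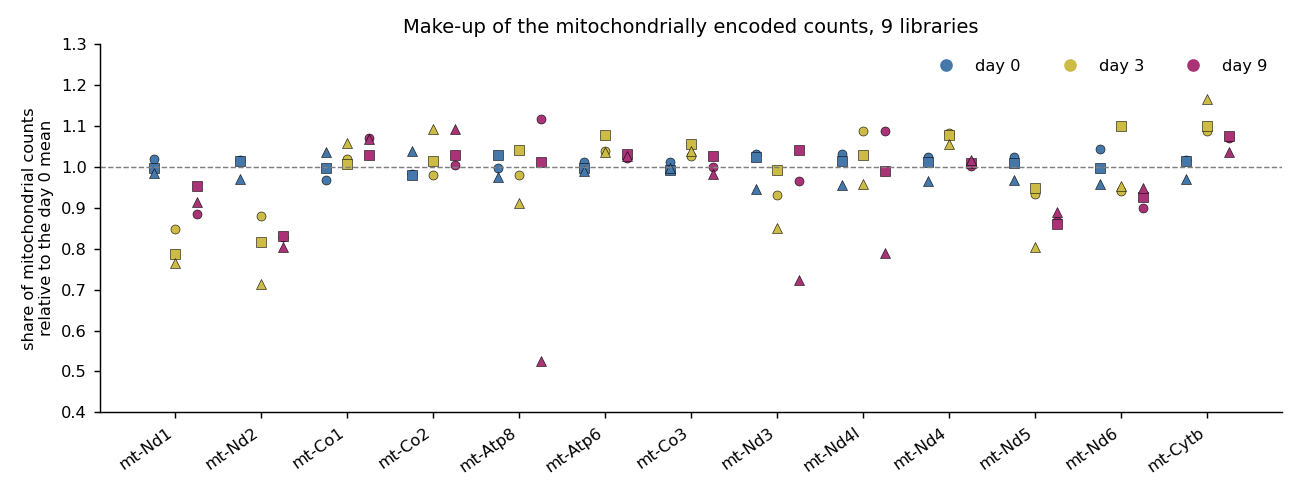
Share of each mitochondrially encoded gene in the sum of the 13 (y axis, relative to the day 0 mean) in each of the 9 libraries, in the order of the genes along the mitochondrial DNA, coloured by day, with circle, square and triangle for the libraries of a day by rising replicate number. mt-Nd1, mt-Nd2 and mt-Nd5 lie below 1 at both later days and mt-Cytb above it; the lowest point is mt-Atp8 in day 9 replicate 4.

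The counts of the short gene mt-Atp8 were uneven through 1 library, day 9 replicate 4. mt-Atp8, a small membrane subunit of the ATP synthase, had 181, 207 and 190 CPM at day 0, 152, 106 and 214 CPM at day 3, and 166, 122 and 57.2 CPM at day 9. Its share of the mitochondrially encoded counts was 0.105% in day 9 replicate 4, against 0.182% to 0.222% in the other 8 libraries. In the same library mt-Nd3 (0.877%) and mt-Nd4l (0.702%), subunits of complex I, also had the lowest share of the 9. mt-Atp8 lies at positions 7766 to 7969 of the mitochondrial chromosome (GRCm38) and runs into mt-Atp6, another membrane subunit of the synthase, at 7927 to 8607. Shown because reads in it fit both genes, the shared stretch of 43 bases (7927 to 7969, plus strand) opens with the start codon of mt-Atp6 and closes with the stop codon of mt-Atp8, both in capitals:
mt-Atp8/mt-Atp6: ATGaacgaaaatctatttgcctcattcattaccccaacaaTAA
mt-Nd4l (9877 to 10173) and mt-Nd4 (10167 to 11544) overlap likewise, and mt-Nd6, on the minus strand at 13552 to 14070, overlaps mt-Nd5 (11742 to 13565), so that reads of these pairs at their joins cannot be told apart.

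The nuclear subunits of complex I were lower than day 0 by similar amounts. All 37 tested had a negative log2 fold change at day 9 against day 0, between -0.50 and -0.14 with a median of -0.33. Of them 32 lay wholly below day 0, beside 28.2% of all genes tested. Ndufv1, which holds the NADH-binding site, had 222, 242 and 240 CPM at day 0, 218, 134 and 321 CPM at day 3, and 190, 154 and 154 CPM at day 9, and its day 9 fold change was -0.50 ± 0.27 (SE, log2, edgeR adjusted p = 0.227). Ndufs1, an iron-sulphur subunit of the electron path, had 260, 290 and 305 CPM at day 0, 215, 116 and 282 CPM at day 3, and 242, 207 and 198 CPM at day 9. The lowest adjusted p of these genes at that contrast was 0.0961 in edgeR, for Ndufb2, an accessory subunit with 46.4, 48.9 and 41.8 CPM at day 9 against 62.3, 64.5 and 63.8 CPM at day 0.

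The assembly factors did not share one direction at day 3. Ndufaf8, a partner of the factor Ndufaf5, had 15.1, 11.6 and 18.8 CPM at day 3 against 12.2, 10.1 and 10.5 CPM at day 0, overlapping, with a log2 fold change of 0.47 ± 0.18 (SE, edgeR adjusted p = 0.109). Ndufaf5 and Ndufaf6 were wholly below day 0 at day 3, with log2 fold changes of -0.51 and -0.55. For Ndufaf5, which modifies a core subunit, the values were 14.6, 12.1 and 10.05 CPM at day 9 against 19.0, 17.7 and 18.1 CPM at day 0.

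Complex II has no mitochondrially encoded subunit and also serves the citric acid cycle. Sdha, its flavin-bearing catalytic subunit, had 623, 693 and 699 CPM at day 0, 581, 341 and 676 CPM at day 3, and 556, 457 and 455 CPM at day 9. The day 9 libraries lay below those of day 0, with a log2 fold change of -0.46 ± 0.24 (SE, edgeR adjusted p = 0.204), against -0.05 ± 0.24 for the membrane anchor Sdhd, whose libraries overlapped. In complex III, Uqcrc1, a core protein, had 450, 532 and 503 CPM at day 0, 393, 220 and 522 CPM at day 3, and 420, 331 and 351 CPM at day 9. All 8 complex III genes had negative log2 fold changes at day 9 against day 0, with a median of -0.33. Of them 7 lay wholly below day 0, beside 28.2% of all genes tested.

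In complex V the 17 tested nuclear genes had negative log2 fold changes at day 9 against day 0, with a median of -0.23. Of them 13 lay wholly below day 0, beside 28.2% of all genes tested. Atp5b, the catalytic beta subunit, had 1666, 1873 and 1865 CPM at day 0, 1745, 1101 and 2584 CPM at day 3, and 1552, 1318 and 1277 CPM at day 9, a log2 fold change of -0.38 ± 0.28 (SE, edgeR adjusted p = 0.359). Atp5g1, Atp5g2 and Atp5g3 encode the same ring subunit, and their fold changes differed in sign. At day 3 against day 0 their log2 fold changes were -0.26 ± 0.29 for Atp5g1, 0.46 ± 0.21 for Atp5g2 and -0.01 ± 0.30 for Atp5g3 (SE), none of them past the test. Atp5g2 had 220, 138 and 255 CPM at day 3 against 155, 148 and 142 CPM at day 0, with day 3 replicate 3 below all 3 of them. Its sign at day 3 turned, to -0.059, when the alveolar type 2 list was added to the fit, while it passed as higher without day 3 replicate 3 (0.61, edgeR adjusted p = 0.00658) and with the fast-fibre list as covariate (0.83, edgeR adjusted p = 0.0395). These 3 genes have related copies in the genome, so their split of reads is uncertain.

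Among the nuclear members, complex IV held the 4 most negative log2 fold changes at day 9 against day 0 and 4 of the 5 positive ones, with Ndufa4l2 counted among the positive. It has pairs of subunit isoforms, of which Cox6a2, Cox7a1 and Cox8b are the forms of heart and skeletal muscle (Cox7a1 and Cox8b are also known from brown fat) and Cox6a1, Cox7a2 and Cox8a are the general forms. A list of 7 heart muscle genes summed to 53.1, 71.0 and 916 CPM at day 0, 35.2, 48.4 and 372 CPM at day 3, and 324, 168 and 169 CPM at day 9, with 0 to 2 of the 7 at 0 reads in a library. These sums do not describe the list as a whole. Of the 6 genes tested, 5 had a negative log2 fold change at day 9 against day 0 (median of the 6 -3.18) and 1 a positive one (1.44). Their mean log2 CPM was 1.37, 2.80 and 6.60 at day 0 and 2.29, 1.72 and 2.32 at day 9. A list of 8 brown fat genes summed to 169 CPM in day 9 replicate 1 and 113 CPM in day 0 replicate 3, and to between 25.8 and 46.7 CPM in the other 7 libraries, with 0 to 2 of the 8 at 0 reads. The part of heart muscle or brown fat in the isoform values was not tested. Cox6a2 had 383, 399 and 351 CPM at day 0, 459, 260 and 593 CPM at day 3, and 229, 244 and 196 CPM at day 9. Cox6a1 had 56.7, 59.1 and 75.1 CPM at day 0, 65.2, 68.7 and 83.1 CPM at day 3, and 95.2, 71.2 and 73.9 CPM at day 9. Day 9 lay below day 0 for Cox6a2, while Cox6a1 overlapped. The log2 fold changes at day 9 against day 0 were -0.76 ± 0.26 for Cox6a2 (adjusted p = 0.0751, edgeR) and 0.33 ± 0.16 for Cox6a1 (adjusted p = 0.185, edgeR). Against day 3 Cox6a2 had a log2 fold change of -0.97 ± 0.26 at day 9 (adjusted p = 0.0569, edgeR; 0.00306 to 0.213 over the alternatives run), with all 3 day 9 libraries below those of day 3.

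Cox8b had 135, 157 and 147 CPM at day 0, 136, 78.2 and 168 CPM at day 3, and 101, 90.8 and 61.8 CPM at day 9. Cox8a had 52.3, 59.2 and 70.6 CPM at day 0, 70.3, 77.9 and 101 CPM at day 3, and 91.1, 76.2 and 69.9 CPM at day 9. Cox8b was below day 0 in each day 9 library, and Cox8a overlapped day 0 at day 9 through one library of each day. At day 9 against day 0 the log2 fold changes were -0.79 ± 0.28 for Cox8b (adjusted p = 0.0764, edgeR) and 0.38 ± 0.18 for Cox8a (adjusted p = 0.158, edgeR).

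Cox7a1 had 106, 121 and 119 CPM at day 0, 64.3, 28.5 and 94.4 CPM at day 3, and 88.8, 70.6 and 44.0 CPM at day 9. Cox7a2 had 78.4, 88.0 and 79.1 CPM at day 0, 76.2, 65.2 and 111 CPM at day 3, and 74.8, 73.5 and 63.9 CPM at day 9. Cox7a1 was the only muscle form of the 3 pairs that lay wholly below day 0 at day 3 too, with a log2 fold change of -0.89 ± 0.40 (SE, edgeR adjusted p = 0.157). Cox6b2, a form of another subunit known from the testis, was scarce, at 0.942, 1.38 and 1.53 CPM at day 9 against 3.34, 3.81 and 3.996 CPM at day 0. Its log2 fold change of -1.52 ± 0.57 was the most negative of all members (SE, edgeR adjusted p = 0.0949). Per length, Cox6b2 had 1.11, 2.86 and 0.311 RPKM in day 3 replicates 1, 3 and 4, against 2.86, 3.30 and 3.63 RPKM at day 0. The alveolar type 2 list summed to 201, 6158 and 146 CPM in those day 3 libraries. The part of lung content in the Cox6b2 values was not tested.

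Within a library, the muscle forms stood lower against the general forms at day 9 than at day 0. The ratio of Cox6a2 to Cox6a1 counts was 6.75, 6.76 and 4.68 in the day 0 libraries, 7.03, 3.78 and 7.14 in those of day 3, and 2.41, 3.43 and 2.65 in those of day 9. The ratio of Cox8b to Cox8a was 2.58, 2.65 and 2.09 in the day 0 libraries, 1.93, 1.00 and 1.66 in those of day 3, and 1.11, 1.19 and 0.883 in those of day 9. The ratio of Cox7a1 to Cox7a2 was 1.36, 1.38 and 1.50 in the day 0 libraries, 0.845, 0.437 and 0.852 in those of day 3, and 1.19, 0.960 and 0.688 in those of day 9. All 3 ratios were lower in each day 9 than in each day 0 library, by 2.14-fold, 2.30-fold and 1.53-fold in the geometric mean. The exact two-sided permutation p was 0.1 for each, the smallest that 3 against 3 libraries can give, and 0.15 after Benjamini-Hochberg adjustment over 9 tests. At day 3 against day 0, Cox7a1/Cox7a2 and Cox8b/Cox8a did not overlap (2.07-fold and 1.64-fold lower, exact permutation p = 0.1 each), while Cox6a2/Cox6a1 did (exact permutation p = 1).

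**Figure D4:**
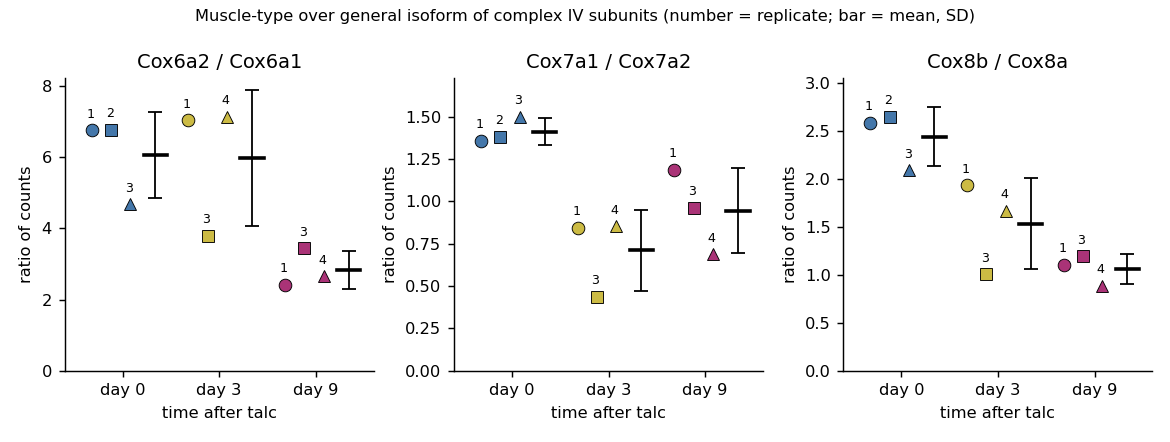
Ratio of the counts of the muscle form to the general form of 3 complex IV subunits (y axis) by day; points are libraries with their replicate number and the bar is the mean with its SD. Cox6a2/Cox6a1 averages 6.06 at day 0, 5.98 at day 3 and 2.83 at day 9, whereas Cox7a1/Cox7a2 is lowest at day 3, at 0.711.

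The start regions of these isoforms differ in their letters, and the 200 bases before the start of 4 of them are shown because the ratios within the pairs differed between the days. They are from the RefSeq promoter table (GRCm38.p6), in which 75 of the 90 tested nuclear members were found; it has no entry for Cox6a2. Capitals mark matches to the motifs searched on both strands, which were the NRF1 motif, TGACCTTG of ESRRA, the MEF2 motif, the E boxes CACCTG and CAGCTG of myogenic factors, and GCGGAAG of GABP. In order, Cox7a1 is at chr7:30183971-30184170 (plus strand), Cox8b at chr7:140900447-140900646, Cox6a1 at chr5:115348959-115349158 and Cox8a at chr19:7217617-7217816 (all minus strand):
Cox7a1: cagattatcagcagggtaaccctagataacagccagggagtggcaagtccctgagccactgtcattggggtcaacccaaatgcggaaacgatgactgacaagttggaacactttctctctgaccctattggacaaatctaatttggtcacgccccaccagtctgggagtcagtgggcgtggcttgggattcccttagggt
Cox8b: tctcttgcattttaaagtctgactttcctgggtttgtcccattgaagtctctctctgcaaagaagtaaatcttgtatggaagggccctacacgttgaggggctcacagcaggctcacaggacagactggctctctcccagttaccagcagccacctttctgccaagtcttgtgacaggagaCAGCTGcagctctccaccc
Cox6a1: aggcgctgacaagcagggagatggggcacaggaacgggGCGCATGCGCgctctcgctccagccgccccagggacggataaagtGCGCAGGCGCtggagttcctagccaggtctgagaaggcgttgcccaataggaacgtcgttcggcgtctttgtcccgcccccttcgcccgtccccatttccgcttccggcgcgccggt
Cox8a: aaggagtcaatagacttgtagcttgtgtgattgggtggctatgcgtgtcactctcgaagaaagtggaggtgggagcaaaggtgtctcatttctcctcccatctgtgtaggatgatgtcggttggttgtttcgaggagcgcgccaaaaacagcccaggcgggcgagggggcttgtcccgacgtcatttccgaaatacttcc
Cox8b has the E box CAGCTG near its start, Cox6a1 has a pair of NRF1 matches, and the shown bases of the other two have none of these motifs. Over windows of 300 bases around the start, the NRF1 motif was in 18 of the 75 members (24%) and in 10.2% of the 11611 tested genes with a window, and the ESRRA motif in 4 members (5.33%) and in 1.34% of those genes. The GABP motif was in 14 members (18.7%) against 11.9%, the E box CACCTG in 20% against 21.6%, CAGCTG in 8% against 18.5%, and the MEF2 motif in 2.67% against 3.76%. These matches describe letters only.

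The members did not follow Myh4 across all 9 libraries. The relation was computed for 14 members, as log2 CPM of each against that of Myh4, with exact permutation tests and adjustment over the 14. These permutations ignore day, although Myh4 and many members were both higher at day 0 than at day 9. Over 9 libraries mt-Co1 had a Pearson r of -0.04 (exact permutation p = 0.928, adjusted 0.985) and a Spearman rho of 0.22 (exact permutation p = 0.581, adjusted 0.581). Cox8b had an r of 0.16 (exact permutation p = 0.694, adjusted 0.964; rho 0.25, p = 0.521, adjusted 0.581). The furthest from 0 was Cox8a, at r = -0.81 (exact permutation p = 0.00789, adjusted 0.110) and rho = -0.80 (p = 0.0138, adjusted 0.194), so that none of the 14 passed the adjusted threshold.

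Within days, with both values centred on their day means and the libraries permuted within each day, r over 9 libraries was negative for all 14, between -0.67 and -0.10. The exact permutation p lay between 0.130 and 0.981, and the adjusted p was 0.981 for each. This test and the next were added after the values were known.

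Day 3 replicate 4 had the lowest Myh4 level, at 6685 CPM, and the highest summed level of the mitochondrially encoded genes, at 117807 CPM, and so goes against a positive relation. Because it was singled out for those values, r without it is a description, with no test across days. It was 0.82 for mt-Co1, 0.87 for mt-Nd1, 0.89 for mt-Cytb and 0.87 for mt-Atp6, and lay between 0.74 and 0.87 for Ndufs1, Sdha, Uqcrc1, Atp5b, Cox6a2, Cox7a1, Cox7a2 and Cox8b, against -0.53 for Cox6a1 and -0.67 for Cox8a. Without the pair of libraries farthest from the Myh4 median, day 3 replicate 4 and day 0 replicate 1, r was between 0.78 and 0.94 for the same 12 members and -0.32 and -0.45 for Cox6a1 and Cox8a. Over all 9 libraries r was negative for mt-Co1, mt-Cytb, mt-Atp6, Cox6a2, Cox7a2 and Atp5b, so their sign rested on day 3 replicate 4. For mt-Nd1, Cox7a1, Cox8b, Ndufs1, Sdha and Uqcrc1 r was positive, and for Cox6a1 and Cox8a negative, with and without that library. Within days and without that library, r was between 0.62 and 0.91 for the 12 members, with exact permutation p between 0.0556 and 0.625 and adjusted p of 0.583 to 0.625, so that no relation within days passed the test (n = 8).

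**Figure D5:**
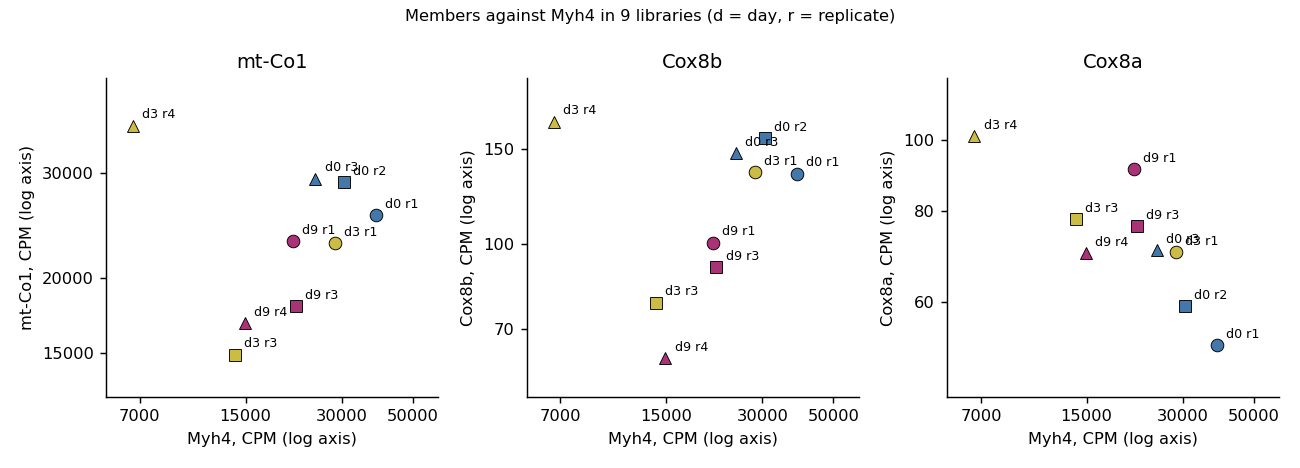
CPM of mt-Co1, Cox8b and Cox8a (y axes, log scale) against CPM of Myh4 (x axis, log scale) in the 9 libraries, labelled by day and replicate. Day 3 replicate 4 (6685 CPM of Myh4) stands apart at the top left for mt-Co1 and Cox8b, while Cox8a runs the other way across all libraries.

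Day 3 replicate 4 was also the library with the most slow-fibre RNA, given above. Against the mean of the slow-fibre list in place of Myh4, r over 9 libraries was 0.67 for mt-Co1 (exact permutation p = 0.0307, adjusted 0.107), 0.79 for Atp5b (p = 0.0110, adjusted 0.0922) and 0.84 for Cox7a2 (p = 0.0161, adjusted 0.0922), with rho of 0.42, 0.53 and 0.38 and day likewise ignored. Against the mean of the fast-fibre list it was 0.53 for mt-Co1, 0.43 for Atp5b and 0.27 for Cox7a2. For Cox7a1 it was 0.81 (exact permutation p = 0.0085, adjusted 0.0758) and for mt-Nd1 0.76 (exact permutation p = 0.0170, adjusted 0.0758), against -0.43 for Cox6a1. With the slow-fibre list as a covariate in edgeR, a fit added after the values were known, 68 of 103 members passed as lower at day 9 against day 0 (beside 12.2% of all genes) and 40 at day 3 against day 0 (beside 4.95%). With the alveolar type 2 list as covariate, 85 passed as lower at day 9 (beside 15.2%) and 65 at day 3 (beside 4.75%). With Myh4 or the fast-fibre list as covariate 0 passed as lower at either day. Beside this, 3.37% and 10% of all genes were lower at day 9, and 77 and 1433 of the 14794 genes at day 3. At day 3 the fast-fibre list turned the medians, to 0.12 for the mitochondrially encoded and 0.23 for the nuclear members, beside 0.11 over all genes. The sign of the members at day 3 against day 0 thus changed with the covariate and with the libraries kept, and what part muscle and lung content had in it was not tested.

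Other genes of the respiratory chain were taken from a separate list of 46 further subunits and assembly factors, 44 of them tested. At day 9 against day 0, 1 passed as higher and 1 as lower (beside 15.2% and 5.54% of all genes), with a median log2 fold change of -0.08. Atpif1, the inhibitor protein of the ATP synthase, rose at day 9, to 50.4, 57.2 and 42.7 CPM against 32.6, 37.8 and 29.1 CPM at day 0, with no overlap (log2 fold change 0.60 ± 0.14, SE, edgeR adjusted p = 0.0196). With replicate 1 or 3 of either day left out its adjusted p in edgeR was 0.0574 to 0.0744. Sdhaf3, an assembly factor of complex II, fell at day 9, to 5.72, 4.62 and 5.24 CPM against 8.60, 9.30 and 7.77 CPM at day 0 (log2 fold change -0.72 ± 0.19, SE, edgeR adjusted p = 0.0293), and leaving out any 1 day 0 or day 9 library gave 0.0540 to 0.105. At day 3 against day 0 only Surf1, an assembly factor of complex IV, passed, beside 16.2% of all genes. Surf1 had 26.8, 26.3 and 25.5 CPM against 20.5, 20.2 and 21.9 CPM (log2 fold change 0.33 ± 0.09, SE, edgeR adjusted p = 0.0463). Every library left out in turn ended this call (edgeR adjusted p 0.0544 to 0.146).

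Cox4i2, the form of a complex IV subunit known from lung, had 5.07, 8.77 and 9.32 CPM at day 9 against 23.3, 20.9 and 19.25 CPM at day 0. At day 3 it had 2.12 and 3.20 CPM in replicates 1 and 4 and 19.0 CPM in replicate 3, the libraries in which the alveolar type 2 list summed to 201, 146 and 6158 CPM, and its part in the result was not tested. The log2 fold change at day 9 against day 0 was -1.45 ± 0.70 (SE, edgeR adjusted p = 0.177), beside -0.21 ± 0.25 for the general form Cox4i1.

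Among 24 regulators of mitochondrial genes, Pprc1, a coactivator of the PGC-1 family, rose at both later days. It had 33.6 ± 1.03 CPM at day 0, 51.2 ± 2.33 CPM at day 3 and 42.5 ± 3.09 CPM at day 9 (SD, n = 3 each), and the days did not overlap. Its log2 fold change was 0.61 ± 0.09 at day 3 (SE, edgeR adjusted p = 0.00419) and 0.34 ± 0.09 at day 9 (edgeR adjusted p = 0.0320), both against day 0. Leaving out any day 0 library, or replicate 1 or 4 of day 9, gave an adjusted p at day 9 of 0.0895 to 0.120. No other regulator passed at either day against day 0, beside 16.2% of all genes at day 3 and 20.7% at day 9. Ppargc1a, a main activator of mitochondrial genes, had 30.8, 55.6 and 51.6 CPM at day 9 against 30.0, 38.2 and 35.9 CPM at day 0, and Tfam, which packages and transcribes the mitochondrial DNA, had a log2 fold change of 0.00 at day 9.

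Of 17 genes of the citric acid cycle and pyruvate dehydrogenase, 0 passed in edgeR at day 9 against day 0, beside 20.7% of all genes. An unadjusted p under 0.05 was found for 3 of them, beside 5193 of the 14794 genes tested. All 17 log2 fold changes were negative, with a median of -0.44. Of 14 genes of fatty acid oxidation 0 passed, with 1 at an unadjusted p under 0.05, and all 14 were negative, with a median of -0.30. In the same comparison 11 of 12 macrophage genes and 6 of 8 fibroblast genes passed as higher, beside 15.2% of all genes. The fibroblast list summed to 28451 to 30964 CPM at day 9 against 7127 to 10562 CPM at day 0. None of the 14 fast-fibre genes passed at day 9 against day 0 (1 at an unadjusted p under 0.05), with a median log2 fold change of -0.56. Whether the lower share of the members at day 9 follows a larger share of such cells was not tested.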

How the data were processed

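Polyadenylated RNA of 9 libraries was sequenced and counted by the authors, and the build is given as GRCm38 (mm10) in the submitters' processing notes, with aligner and counter not given in the sources used here. Read counts per gene, whole numbers in the deposited table, were used for all tests. The deposited columns headed TPM hold CPM without scaling by length, as the values show (0.999749 to 0.999862 of the CPM computed from the counts, in 14404 genes), so levels per length were computed from GENCODE M21 exon lengths. Its columns headed CPM (unit signal, scaled between libraries by the authors) and the authors' log2 fold changes and FDR p-values are not used in the text. Only 16 of the 108 members, the 13 mitochondrial genes among them, lie at the same positions in the table and in GRCm38, so other gene coordinates are not printed.

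Genes were fitted with edgeR 4.0.16 (R 4.3.3; TMM, filterByExpr, 1 mean per day, quasi-likelihood F test with 6 residual degrees of freedom), and p-values were adjusted over 14794 genes; CPM in the text are TMM-normalised. limma 3.58.1, DESeq2 1.42.0, other scalings, covariates, a replicate block and leaving out each library were alternatives. On simulated data with 200 changed genes the script was tested before use. Named genes were the mitochondrial members, isoform pairs, core catalytic subunits, those with the largest fold changes and, of other lists, those with the smallest adjusted p. Day 0 libraries 1 to 3 and later libraries 1, 3 and 4 share numbers, and the labels do not say what a number stands for. The members, lists and covariates were chosen with earlier results of these data known. Intervals reflect the spread among 3 libraries a day.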

Additional observations from a re-analysis of the deposited data

How the results depend on the processing

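Counts of members past the test were 0 in the fit of all libraries, so any call is a change. Lower members at day 9 against day 0 numbered 64 with only the 6 libraries of those days, 85 with the alveolar type 2 list and 68 with the slow-fibre list as covariate, 8 by DESeq2, 4 with library totals only, and 1 each with DESeq2 size factors and limma-voom, the last 3 counts beside 3.62%, 6.41% and 6.03% of all genes lower. At day 3 against day 0 they numbered 65 and 40 with those covariates, and 1 member was higher with the fast-fibre covariate (beside 10.5% of all genes). At day 9 against day 3, lower members numbered 3 with the fast-fibre (beside 6.69%), 2 with the slow-fibre (5.41%) and 1 with the alveolar covariate (4.54%), which gave 3 higher (6.65%), and 2 by DESeq2 (7.21%) and 1 with library totals (3.49%). Leaving out 1 library gave 0 to 25 lower at day 9 against day 0, 0 to 20 at day 9 against day 3, and 0 to 1 lower and 0 to 3 higher at day 3 against day 0, with 25, 20, 1 and 3 all without day 3 replicate 3 (beside 14.8%, 11%, 17.5% and 17.1% of all genes) and 0 higher in the other comparisons. The cause was not tested.

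Without the fast-fibre list in the total, the mitochondrial share at day 0 was 10.7%. Without the mt- genes in the total the nuclear share was 1.45% at day 9 and 1.77% at day 0, and without assembly factors the genome ratio at day 0 was 5.91. Leaving out 1 library, the mitochondrial share averaged from 9.17% up to 9.77% for day 0, from 6.60% up to 9.00% for day 3 and from 6.10% up to 6.87% for day 9, the nuclear share, by day, 1.56% to 1.66%, 1.28% to 1.67% and 1.31% to 1.39%, and the ratio 5.85 to 5.89, 5.18 to 5.43 and 4.65 to 4.94.

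Without the pair of libraries farthest from the Myh4 median, r was 0.864 for mt-Co1, 0.865 for mt-Nd1, 0.919 for mt-Cytb, 0.891 for mt-Atp6, 0.813 for Cox6a2, 0.839 for Cox7a1, 0.923 for Cox8b, 0.936 for Cox7a2, 0.781 for Ndufs1, 0.871 for Sdha, 0.805 for Uqcrc1 and 0.916 for Atp5b. Without day 3 replicate 4 these were 0.819, 0.869, 0.887, 0.872, 0.804, 0.821, 0.873, 0.853, 0.740, 0.822, 0.759 and 0.831, with -0.532 for Cox6a1 and -0.673 for Cox8a. Within days, r turned to -0.278 for mt-Nd1, -0.154 for Cox7a1, -0.103 for Cox8b, -0.278 for Ndufs1, -0.194 for Sdha and -0.307 for Uqcrc1, and, also without day 3 replicate 4, to 0.624 for mt-Co1, 0.767 for mt-Cytb, 0.737 for mt-Atp6, 0.913 for Cox6a2, 0.707 for Cox7a2 and 0.674 for Atp5b. Against the fast-fibre mean, r turned positive for mt-Co1 (0.526), mt-Cytb (0.466), mt-Atp6 (0.528), Cox6a2 (0.340), Cox7a2 (0.274) and Atp5b (0.433). It was positive, as against Myh4, for Cox7a1 (0.807), mt-Nd1 (0.756) and Cox8b (0.587), and negative for Cox6a1 (-0.430).

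Of the 64 named fold changes, 1 changed sign, that of Atp5g2 at day 3 against day 0 (-0.0590 with the alveolar covariate). The replicate block called 0 members in each comparison, as without it, and ended the calls of Atpif1, Pprc1, Sdhaf3 and Surf1. It also lowered the calls over all 14794 genes. With it 28 were lower and 186 higher at day 3 against day 0, against 486 and 1904 without it. At day 9 against day 0 these were 123 and 777, against 820 and 2246, and at day 9 against day 3 they were 45 and 82, against 542 and 768. In their deviations from the day means, the 7 same-numbered pairs of libraries correlated between -0.25 and 0.47, and 2 exceeded 0.1. Pairs of unlike number ran from -0.60 to 0.52. With means of only 3 libraries a day, these values cannot decide whether the numbers pair the libraries. Surf1 at day 3 failed in 19 of its alternatives, and Pprc1 and Sdhaf3 at day 9 in 8 each, among them the fast-fibre covariate. The fit of all libraries called log2 fold changes as small as 0.33 (Surf1) and 0.34 (Pprc1), beside member medians of -0.65 and -0.32 at day 9 with no member called.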
